A study of Arabidopsis thaliana with 12 samples.

Results

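The transcripts described here are those of the plastid-encoded subunits of the chloroplast NADH dehydrogenase-like (NDH) complex. A gene was a member if the plastid genome encodes it and a probe set on the array names it alone, which gave 10 genes, ndhA, ndhC, ndhD, ndhE, ndhF, ndhG, ndhH, ndhI, ndhJ and ndhK, among the 22746 probe sets tested. Another 59 plastid genes that a probe set names alone served for comparison. The remaining subunit gene, ndhB, lies in the plastid genome in 2 identical copies, and its only probe set names both, so it was read beside the members and not counted with them.

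The study hybridised total RNA from whole Arabidopsis thaliana seedlings to 12 Affymetrix arrays, 2 for each of 6 groups. The seedlings were gun1-1 mutants, abi4-102 mutants or wild type, all of the Col-0 ecotype, and each genotype was sampled with and without lincomycin. All were 5 days old and grown at 21 °C in cycles of light and dark, with light of 20 µmol per square metre per second and 1% sucrose in the medium, and lincomycin was given at 220 µg/ml by the treatment protocol and at 200 µg/ml by the sample source. The stated purpose was to compare the genomic response to lincomycin across the 3 genotypes. Each mutant is represented by a single allele, and the genotype field of the second gun1-1 array without lincomycin lists all 3 genotypes, so the sample title was used for it.

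Lincomycin blocks translation on plastid ribosomes. GUN1 is a plastid pentatricopeptide repeat protein and ABI4 a nuclear transcription factor, and both have been studied in the signalling by which damaged plastids alter nuclear gene expression. The NDH complex sits in the thylakoid membrane, where it passes electrons from ferredoxin to plastoquinone during cyclic electron flow around photosystem I and contributes to proton pumping. It resembles the respiratory complex I of mitochondria, its membrane arm holds NdhA to NdhG, its stromal arm holds NdhH to NdhK with the iron-sulfur clusters of NdhI and NdhK, and nuclear genes supply the remaining subunits.

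The plastid genome keeps these genes in 3 places. In gene order (RefSeq, TAIR10.1), ndhJ, ndhK and ndhC adjoin each other and are known to be transcribed together. The gene ndhF stands apart from them, and rpl32 and ccsA separate it from a run of ndhD, psaC, ndhE, ndhG, ndhI, ndhA, ndhH and rps15, much of which is also transcribed as longer precursor RNAs. Both arms are therefore encoded within each of the longer clusters.

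The values are log2 expression from robust multi-array averaging (RMA), so a difference of 1 is a doubling. Levels of different probe sets are not read as amounts of RNA, and a rank by brightness is given only as a limit of measurement. Array medians over all probe sets lay between 5.44 and 5.52 and replicate arrays correlated at 0.990 to 0.996. The labels name no separate cultures for the replicates. The p-values therefore measure only the spread between these arrays, which may be technical, and 2 arrays a group limit the precision. In whole seedlings, fewer plastids or fewer cells of a type and less RNA per plastid or cell cannot be told apart. The root hair gene EXPA18 rose with lincomycin in gun1-1 by 1.18 on the log2 scale (adjusted p = 0.0350, limma). Its 2 arrays with lincomycin there lay far apart, at 6.65 and 5.57, against 5.08 and 4.78 without. The other root gene measured, EXPA7, was not called there, and the part of tissue composition in the results was not tested.

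Calls below use limma's moderated test with Benjamini-Hochberg adjustment over the 22746 probe sets, at an adjusted p under 0.05. By this test ndhD and ndhG were called in none of the 10 planned comparisons, and each other member in at least 1. The share of all probe sets called in at least 1 of them was not counted, so this has no background beside it.

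With lincomycin the members did not move as one. In all 3 genotypes ndhC fell and ndhH rose, while no other member had a called response in abi4-102 or Col-0 in the fit reported. Other settings called ndhI in Col-0 (renewed quantile normalisation) and ndhE in abi4-102 (only the groups compared, 0.56, adjusted p = 0.0385, limma). In gun1-1 seedlings with lincomycin, 7 of the 10 members had the lowest of their 6 group means, as did 29 of the 59 other plastid genes. In gun1-1 without lincomycin another 2 members and 19 of the 59 had theirs, so a low level in gun1-1 was not limited to lincomycin. For ndhJ, 1 of the 7, the 2 gun1-1 groups overlapped, with means of 7.24 with and 7.29 without lincomycin. The plot of every array's value shows these patterns gene by gene.

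**Figure D1:**
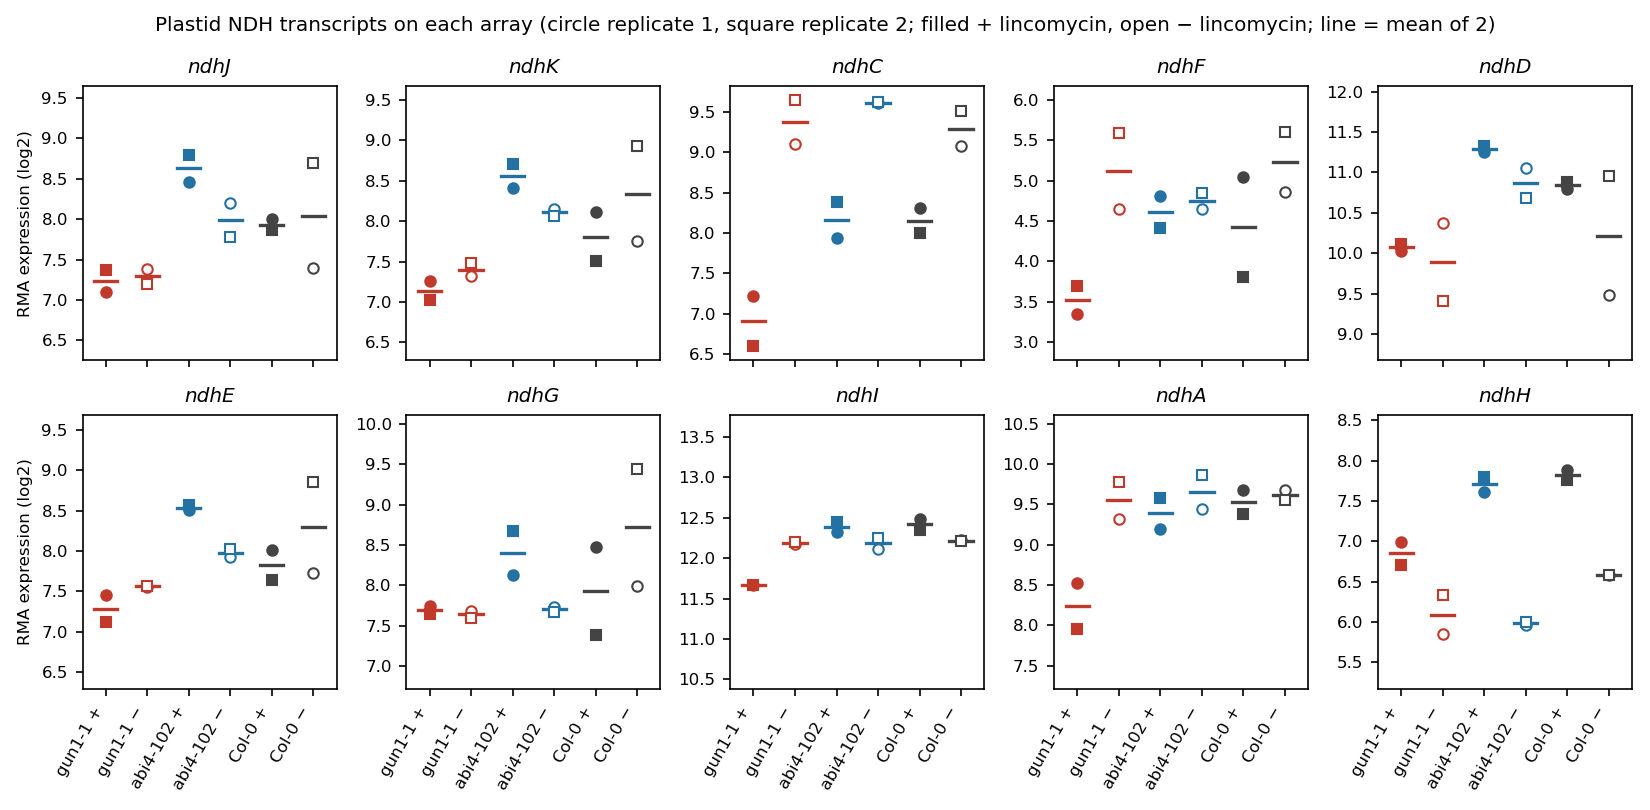
RMA expression (log2, vertical axis) of the 10 plastid NDH genes on each of the 12 arrays, by genotype with (+, filled) and without (−, open) lincomycin; circles are replicate 1, squares replicate 2 and lines the mean of 2 arrays. ndhC sits lower and ndhH higher with lincomycin in every genotype. By its mean, gun1-1 with lincomycin is the lowest group for 7 of the 10 genes and gun1-1 without it for 2.

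In the membrane arm, ndhC showed the clearest response. NdhC is a small hydrophobic subunit near the quinone site, and its transcript read 7.22 and 6.60 with lincomycin against 9.10 and 9.64 without in gun1-1. In abi4-102 it read 7.94 and 8.38 with lincomycin against 9.61 and 9.62 without, and in Col-0 8.30 and 8.0 with against 9.07 and 9.51 without. Every array with lincomycin lay below every array without it, across genotypes. The fall was 5.52-fold in gun1-1 (log2 −2.46 ± 0.25 SE, adjusted p = 0.000308, limma). It was 2.74-fold in abi4-102 (log2 −1.45, adjusted p = 0.00398, limma) and 2.20-fold in Col-0 (log2 −1.14, adjusted p = 0.00916, limma). The Col-0 call did not hold without the second Col-0 array without lincomycin (log2 −0.92, adjusted p = 0.0975, limma) or without the second Col-0 array with it (log2 −0.99, adjusted p = 0.0642, limma).

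The transcript of ndhF, which encodes the long distal proton-pumping subunit, read 3.34 and 3.69 with lincomycin against 4.65 and 5.59 without in gun1-1. Its values in abi4-102 were 4.81 and 4.41 with against 4.65 and 4.84 without, and in Col-0 5.05 and 3.81 with against 4.86 and 5.60 without. Only in gun1-1 did the arrays with and without lincomycin not overlap. There ndhF fell 3.04-fold (log2 −1.60 ± 0.40 SE, adjusted p = 0.0305, limma). The ndhF probe set was dim, brighter than only 38.9% of probe sets. Its values of 3.34 and 3.69 lay below the medians of those arrays, 5.45 and 5.44. The fit limited to the brighter probe sets left it out, and the effect of low signal on this fall was not tested. The call was lost in 3 of the 4 fits that left out 1 gun1-1 array, with responses between −2.07 and −1.13 over the 4. With all arrays it was also lost with an intensity trend and robust prior (adjusted p = 0.0692) and with array weights (adjusted p = 0.0581, limma).

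NdhA links the membrane arm to the stromal arm. Its transcript read 8.53 and 7.95 with lincomycin against 9.32 and 9.78 without in gun1-1, a 2.48-fold fall (log2 −1.31 ± 0.23 SE, adjusted p = 0.00661, limma). In abi4-102 it read 9.20 and 9.58 with against 9.44 and 9.87 without, and in Col-0 9.67 and 9.38 with against 9.68 and 9.56 without. The groups overlapped in both of these genotypes, with log2 responses of −0.27 (adjusted p = 0.522) and −0.09 (adjusted p = 0.867, limma). Without the second gun1-1 array with lincomycin the gun1-1 response was −1.02 (adjusted p = 0.0507, limma).

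The other 3 membrane members lie together near psaC and had no called response. The gene ndhD, for another antiporter-like proton-pumping subunit, read 10.03 and 10.11 with lincomycin against 10.38 and 9.41 without in gun1-1. In abi4-102 it read 11.26 and 11.33 with against 11.06 and 10.68 without, and in Col-0 10.79 and 10.89 with against 9.48 and 10.96 without. The 2 Col-0 arrays without lincomycin thus stood on either side of both arrays with it. For ndhE, which encodes a small membrane subunit, the log2 responses were −0.28 in gun1-1, 0.56 in abi4-102 and −0.47 in Col-0, with adjusted p of 0.239 or more. For ndhG, which encodes a further membrane subunit, they were 0.05, 0.70 and −0.79 in the same order, with adjusted p of 0.256 or more (limma).

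In the stromal arm, ndhH moved the opposite way to ndhC. NdhH is a large subunit at the plastoquinone site, and its transcript read 6.99 and 6.71 with lincomycin against 5.85 and 6.33 without in gun1-1. It read 7.62 and 7.80 with against 5.97 and 6.0 without in abi4-102, and 7.89 and 7.75 with against 6.58 and 6.58 without in Col-0. Both arrays with lincomycin were above both arrays without it in each genotype, and the gun1-1 arrays with lincomycin were the lowest of those with it. The rise was 1.69-fold in gun1-1 (log2 0.76 ± 0.16 SE, adjusted p = 0.0144, limma). It was 3.30-fold in abi4-102 (log2 1.72, adjusted p = 0.000116, limma) and 2.36-fold in Col-0 (log2 1.24, adjusted p = 0.000406, limma). The calls in abi4-102 and Col-0 held with any 1 of their arrays left out. The gun1-1 call did not hold without the first gun1-1 array with lincomycin (log2 0.62) or the first without it (log2 0.52). It did not hold either when only the groups compared were fitted (adjusted p = 0.0945, limma).

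NdhI is a ferredoxin-like iron-sulfur subunit. The ndhI probe set was brighter than 99.9% of probe sets, where RMA can compress differences, and the effect of this was not tested. Among the members ndhI had the smallest spread between replicates, with a median SD of 0.05 over the 6 groups. Its transcript read 11.67 on both gun1-1 arrays with lincomycin against 12.17 and 12.20 without. In abi4-102 it read 12.33 and 12.45 with against 12.11 and 12.25 without, and in Col-0 12.49 and 12.35 with against 12.23 and 12.21 without. The arrays with lincomycin lay below those without in gun1-1 and above them in abi4-102 and Col-0, with no overlap in any of the 3. The fall in gun1-1 was 1.43-fold (log2 −0.52 ± 0.11 SE, adjusted p = 0.0126, limma). The responses of 0.21 in abi4-102 (adjusted p = 0.242) and 0.20 in Col-0 (adjusted p = 0.246) were not called by limma. The gun1-1 call was lost in 3 of the 4 fits that left out a gun1-1 array (adjusted p up to 0.0626) and when only the groups compared were fitted (adjusted p = 0.0804, limma). A second quantile normalisation left −0.34 in gun1-1, which was not called (adjusted p = 0.0572), and gave 0.38 in Col-0, which was (adjusted p = 0.0263, limma).

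The adjoining stromal-arm genes ndhJ and ndhK, whose products form part of the same arm as NdhH, had no called lincomycin response. In gun1-1 ndhK read 7.26 and 7.02 with lincomycin against 7.32 and 7.48 without. In abi4-102 it read 8.41 and 8.71 with against 8.16 and 8.07 without, and in Col-0 8.11 and 7.51 with against 7.75 and 8.93 without. The arrays were lower with lincomycin in gun1-1, higher in abi4-102 and overlapping in Col-0. The log2 responses of ndhK were −0.26, 0.45 and −0.53 in gun1-1, abi4-102 and Col-0. Those of ndhJ were −0.06, 0.64 and −0.11 in the same order.

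**Figure D2:**
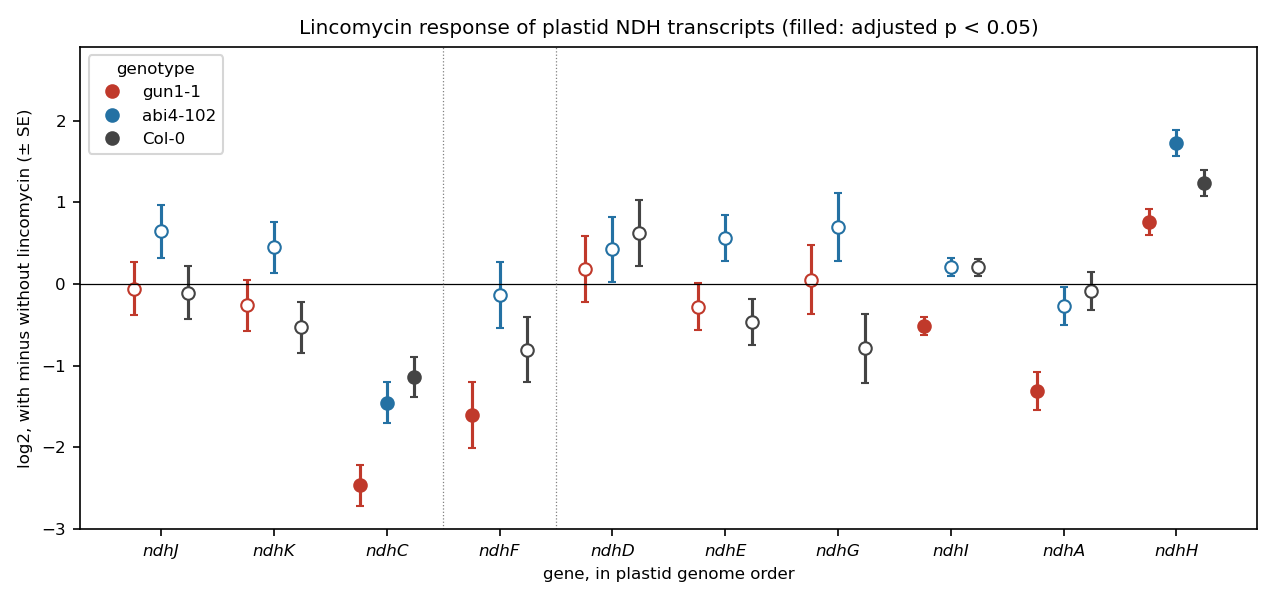
Log2 difference with minus without lincomycin (± SE of the fit, n = 2 arrays a group) for each plastid NDH gene in plastid genome order, by genotype, filled where adjusted p was under 0.05. ndhC fell and ndhH rose in all 3 genotypes, and ndhF, ndhI and ndhA passed the test only in gun1-1, although the difference from Col-0 passed only for ndhI.

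Set against the whole array, these counts were as follows. In gun1-1, 5 of the 10 members were called, 1 higher and 4 lower, where 10.7% of all probe sets were called, 5.79% higher and 4.9% lower. With any 1 gun1-1 array left out the count was 2 or 3, where 5.03% to 7.76% of all probe sets were called, and it was 3 without the array whose genotype field lists all 3 genotypes. In abi4-102, 2 of 10 were called, where 13.2% of all probe sets were. In Col-0, 2 of 10 were called, where 17.4% of all probe sets were. The share of members was thus close to the background in abi4-102 and Col-0 and above it in gun1-1. Of the 59 other plastid genes, 7 were called higher and 18 lower in gun1-1, 22 and 12 in abi4-102, and 14 and 14 in Col-0. Their share was therefore also above the background in gun1-1, and it was above that of the members in abi4-102 and Col-0. The arrays with and without lincomycin did not overlap for 7 members in gun1-1, 8 in abi4-102 and 3 in Col-0, beside 53.2%, 56% and 58.2% of all probe sets. The median member response was −0.27 in gun1-1, 0.44 in abi4-102 and −0.29 in Col-0. The medians over all probe sets were −0.01, 0.02 and 0.02, and those over the 59 other plastid genes were −0.26, 0.37 and −0.26. In their medians the NDH genes therefore lay near the other plastid genes in each genotype.

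Averaged over the 3 genotypes, a comparison added after the data were seen, 4 of 10 members were called, where 32.3% of all probe sets were. The gene ndhC fell 3.22-fold (log2 −1.69 ± 0.14 SE, adjusted p = 1.14e-05, limma) and ndhH rose 2.36-fold (log2 1.24 ± 0.09 SE, adjusted p = 4.30e-06, limma). Smaller falls were called for ndhF (log2 −0.85, adjusted p = 0.0170, limma) and ndhA (log2 −0.55, adjusted p = 0.00904, limma). The other 6 lay between −0.11 and 0.41.

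Among classes of plastid genes, the members took a middle place. The 15 photosystem II genes had median log2 responses of −1.85 in gun1-1, −1.19 in abi4-102 and −1.51 in Col-0. The 4 RNA polymerase subunit genes had medians of 1.33, 2.01 and 1.76 in the same order, and the 15 ribosomal protein genes 0.48, 1.42 and 1.41. The NDH members spanned both directions, since ndhC lay among the falling and ndhH among the rising genes. Of the plastid classes plotted, the 6 ATP synthase genes, at −0.22, 0.32 and −0.41, had medians nearest to those of the members.

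**Figure D3:**
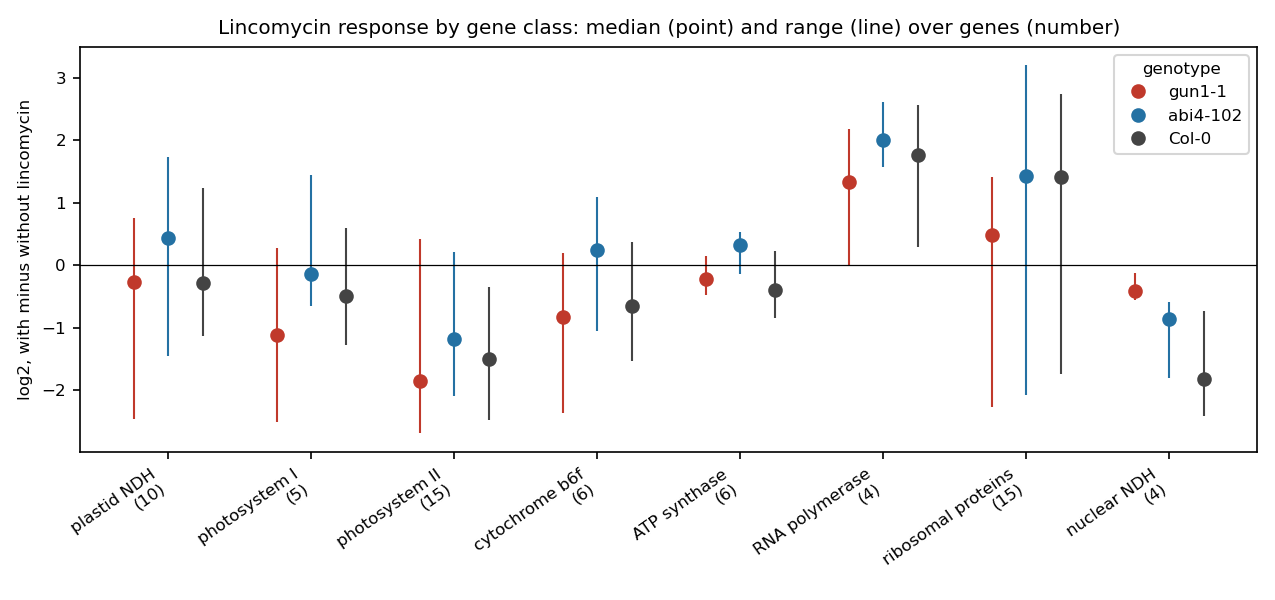
Median (points) and range (lines) of the log2 response to lincomycin, with minus without, over the genes of each plastid class and of the nuclear NDH subunits, by genotype, with the number of genes in brackets. The 10 plastid NDH genes have medians of −0.27, 0.44 and −0.29 in gun1-1, abi4-102 and Col-0, which lie between those of the photosystem II and the RNA polymerase genes.

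With lincomycin ndhC and ndhH changed otherwise than most of their cluster mates. Within each array the difference between the probe sets of 2 genes of a cluster was taken, of which only the change from array to array can be read. Every pair below without overlap holds ndhC or ndhH, so it restates in part their responses given above. For ndhC minus ndhK this difference lay between −0.47 and 0.49 over the 6 arrays with lincomycin and between 0.58 and 2.17 over the 6 without, with no overlap. The mean shift was −1.57 on the log2 scale. For ndhK minus ndhJ the arrays overlapped and the shift was −0.27. The arrays did not overlap for ndhC minus ndhJ either, with a shift of −1.85.

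At the other end of the ndhD to ndhH run, ndhH minus ndhA lay between −1.78 and −1.25 with lincomycin and between −3.87 and −2.98 without, again with no overlap and a shift of 1.79. The arrays did not overlap for ndhH against ndhI, ndhE or ndhG either, with shifts of 1.27, 1.30 and 1.25. They overlapped for ndhH against ndhD, where the shift was 0.83, and for ndhH against its neighbour rps15, where it was −0.23. For ndhA minus ndhI the arrays overlapped as well, with a shift of −0.52. These differences are descriptions of 12 arrays, given without a test.

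The gene rps15, for a protein of the small plastid ribosomal subunit, follows ndhH. It read 7.05 and 6.82 with lincomycin against 5.86 and 6.22 without in gun1-1, 8.14 and 7.96 with against 6.22 and 5.78 without in abi4-102, and 7.39 and 7.81 with against 5.84 and 6.45 without in Col-0. Like ndhH it was higher on every array with lincomycin than on those without in the same genotype. It rose by log2 0.90 in gun1-1 (adjusted p = 0.0340), 2.05 in abi4-102 (adjusted p = 0.000339) and 1.45 in Col-0 (adjusted p = 0.00152, limma). The genes psaC, for the iron-sulfur subunit of photosystem I between ndhD and ndhE, rpl32 and ccsA had no called lincomycin response in any genotype.

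**Figure D4:**
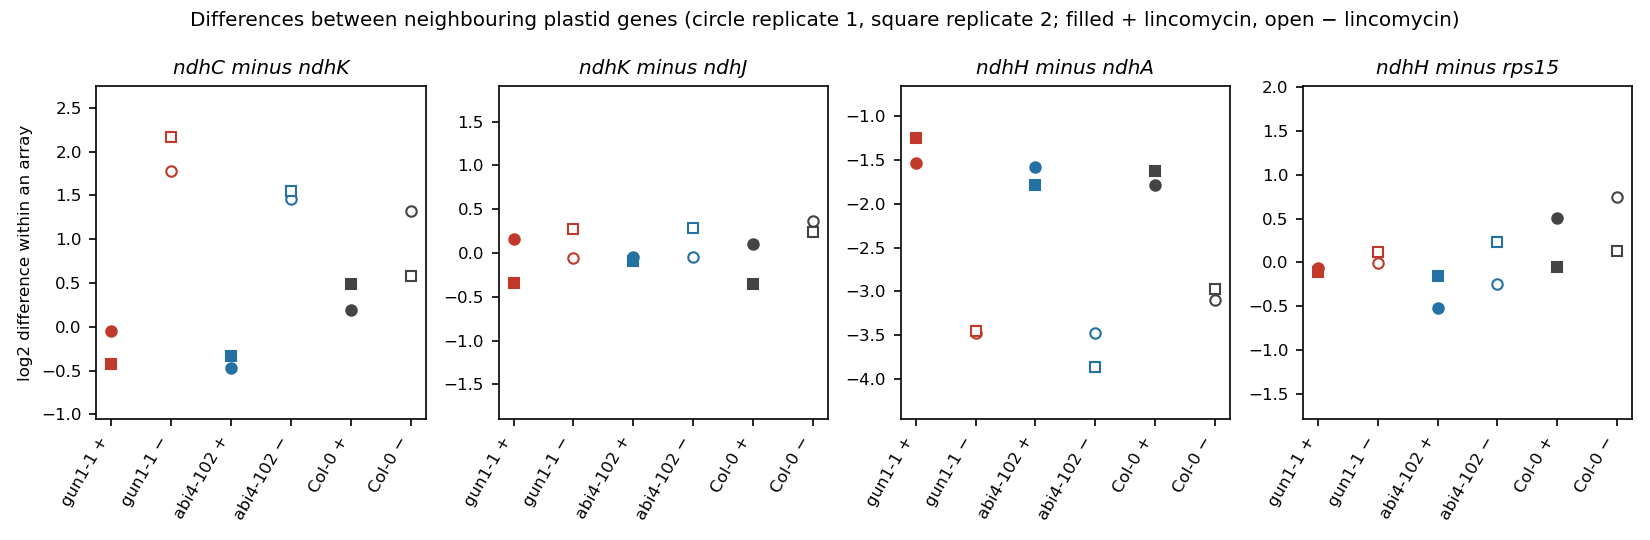
Log2 difference within each array between probe sets of neighbouring plastid genes, by genotype with (+, filled) and without (−, open) lincomycin; circles are replicate 1 and squares replicate 2. ndhC minus ndhK shifts by −1.57 and ndhH minus ndhA by 1.79 with no overlap, while the arrays overlap for ndhK minus ndhJ and ndhH minus rps15.

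Across the 12 arrays, which fall in 6 groups and share their normalisation, members of different clusters could follow each other more closely than cluster mates. The highest of the 45 Pearson coefficients between members was 0.980, for ndhK and ndhE. Within the first cluster ndhJ and ndhK correlated at 0.920, but ndhJ and ndhC at 0.19. The lowest was −0.55, for ndhC and ndhH. The median was 0.41 over the 18 pairs within a cluster and 0.55 over the 27 pairs across clusters. These coefficients describe the arrays and carry no test.

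With lincomycin, members were called lower in gun1-1 than in Col-0, and none was called between abi4-102 and Col-0. All 10 members were lower in gun1-1 than in Col-0 by their fitted differences, and 4 of 10 passed the test, where 10% of all probe sets were called, 4.04% as lower. The lowered members were ndhA (log2 −1.29 ± 0.23 SE, 2.44-fold, adjusted p = 0.00514, limma), ndhC (−1.24 ± 0.25 SE, 2.37-fold, adjusted p = 0.00925, limma), ndhH (−0.97 ± 0.16 SE, 1.96-fold, adjusted p = 0.00312, limma) and ndhI (−0.75 ± 0.11 SE, 1.68-fold, adjusted p = 0.00120, limma). The other 6 had differences from −0.91 for ndhF to −0.24 for ndhG. For 9 of the members, all except ndhG, both gun1-1 arrays lay below both Col-0 arrays, as they did for 27.1% of all probe sets.

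Other plastid transcripts were lower in gun1-1 as well. Of the 59 other plastid genes 26 were called lower in gun1-1 than in Col-0 with lincomycin and none higher, with a median difference of −0.71 beside −0.76 for the members. The median over those 59 genes was 8.44 and 8.38 on the gun1-1 arrays with lincomycin against 9.18 and 8.81 on the Col-0 arrays with it. Both gun1-1 arrays were below both Col-0 arrays. The ndhC call did not hold without the first Col-0 array with lincomycin (adjusted p = 0.0666) or the second gun1-1 array with it (adjusted p = 0.0794), whereas those of ndhI, ndhA and ndhH held in each such fit (limma).

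None of the members differed by the test between abi4-102 and Col-0 with lincomycin, where 0.457% of all probe sets were called. At an unadjusted p under 0.05 the count was 2, where 11% of all probe sets passed. The fitted differences were above 0 for 7 members, with a median of 0.32 and a highest value of 0.75 for ndhK (adjusted p = 0.401, limma). For 4 members the arrays did not overlap, as for 37.9% of all probe sets.

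Between the mutants with lincomycin, 7 of the 10 members were lower in gun1-1 than in abi4-102, where 10.9% of all probe sets were called, 4.87% as lower, and the comparison shares its gun1-1 arrays with the one against Col-0. The largest differences were −1.42 ± 0.31 SE for ndhK (2.68-fold, adjusted p = 0.0145, limma) and −1.40 ± 0.33 SE for ndhJ (2.63-fold, adjusted p = 0.0197, limma). The differences were −1.25 for ndhC (adjusted p = 0.00890) and for ndhE (adjusted p = 0.0175), −1.15 for ndhA, −0.86 for ndhH and −0.72 for ndhI (limma). The 3 members that missed the threshold were ndhD (−1.22, adjusted p = 0.0820), ndhF (−1.09, adjusted p = 0.117) and ndhG (−0.70, adjusted p = 0.339, limma).

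All 10 members had both gun1-1 arrays below both abi4-102 arrays with lincomycin, as 27.5% of all probe sets did. For ndhJ, for example, the values were 7.10 and 7.37 in gun1-1 against 8.46 and 8.80 in abi4-102. Of the 59 other plastid genes 38 were called lower, with a median difference of −1.16 beside −1.18 for the members. The count among members was 1 without the second gun1-1 array with lincomycin and 2 without the second abi4-102 array with it, where 6.76% and 7.57% of all probe sets were called, and ndhJ was called in none of the 4 fits that left out an array.

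**Figure D5:**
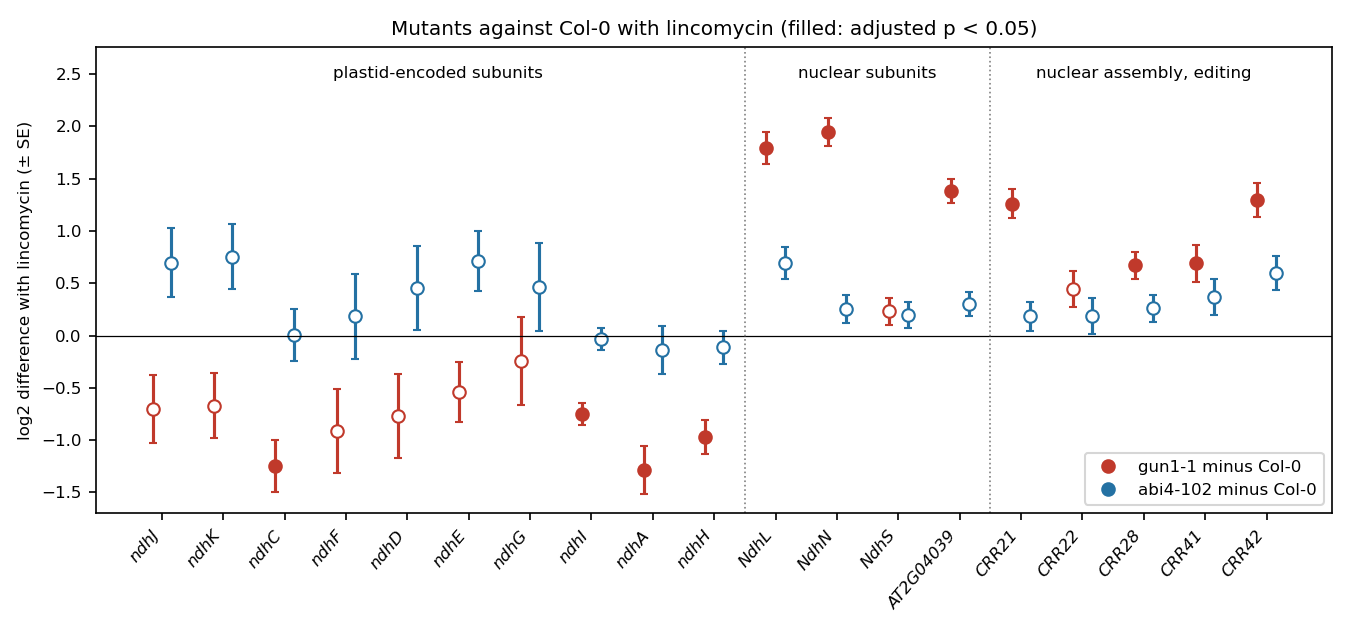
Log2 difference from Col-0 with lincomycin (± SE of the fit, n = 2 arrays a group) for gun1-1 and abi4-102, for the plastid NDH genes and for measured nuclear genes of NDH subunits and NDH assembly or RNA editing, filled where adjusted p was under 0.05. In gun1-1 all 10 plastid genes lie below 0, 4 of them called, while 3 of 4 nuclear subunit genes are called above 0. Of all probe sets, 4.04% were called lower and 5.98% higher in gun1-1.

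Whether the response to lincomycin itself differed between genotypes was tested with interaction contrasts. Between gun1-1 and Col-0 the response differed by the test for 1 member, where 4.38% of all probe sets were called, 1.16% as lower. That member was ndhI, whose response was more negative in gun1-1 by 0.72 on the log2 scale (−0.72 ± 0.15 SE, adjusted p = 0.0229, limma). Of 8 fits that each left out 1 array of these genotypes, 7 did not call it, with adjusted p up to 0.0931, and the difference stayed between −0.79 and −0.65. The differences of ndhC (−1.33 ± 0.35 SE, adjusted p = 0.0651) and ndhA (−1.22 ± 0.33 SE, adjusted p = 0.0680) were larger but missed the threshold (limma). Of the 59 other plastid genes, 7 had a called difference, all lower in gun1-1.

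Between abi4-102 and Col-0 limma called no difference of response, for any member or any other probe set, that is 0% of those tested. At an unadjusted p under 0.05 it counted 3 members, where 9.8% of all probe sets passed. The median difference was 0.57, from −0.31 for ndhC to 1.49 for ndhG. Between gun1-1 and abi4-102, a comparison added after the data were seen, none of the 10 passed either, where 0.532% of all probe sets were called, and 5 had an unadjusted p under 0.05, as 10.4% of all probe sets did. All 10 differences were below 0, with a median of −0.78, and those nearest the threshold were ndhI (−0.72, adjusted p = 0.0689) and ndhH (−0.96, adjusted p = 0.102, limma).

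Without lincomycin no member was called between genotypes by limma. Between gun1-1 and Col-0, where 0.022% of all probe sets were called, 9 of 10 fitted differences were below 0 with a median of −0.41, and 5 members had an unadjusted p under 0.05, as 6.74% of all probe sets did. Between abi4-102 and Col-0, where 1.68% were called, the median was −0.14, and 2 members had an unadjusted p under 0.05, as 14.7% of all probe sets did. There ndhH read 5.97 and 6.0 in abi4-102 against 6.58 and 6.58 in Col-0, with a difference of −0.60 (adjusted p = 0.103, limma) and no overlap. Between gun1-1 and abi4-102, a comparison also added later, 0.211% of probe sets were called, and 2 members had an unadjusted p under 0.05, as 10.2% of all probe sets did.

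The Col-0 arrays without lincomycin disagreed with each other over some members, which bears on every comparison that uses them. Replicate 2 exceeded replicate 1 by more than 1 on the log2 scale for 5 of the 10 members, namely ndhJ (1.30), ndhK (1.18), ndhD (1.48), ndhE (1.14) and ndhG (1.45). The same was seen for 9 of the 59 other plastid genes and for 0.123% of the probe sets outside these named plastid genes. That last set still holds the probe set of ndhB. For ndhI, ndhA and ndhH the gaps were −0.02, −0.12 and 0.00. Between the Col-0 arrays with lincomycin, ndhF and ndhG differed by more than 1, and in the 4 mutant groups no member did.

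The count in Col-0 changed with the array left out. Without the first Col-0 array without lincomycin, 5 members were called with lincomycin, where 10.2% of all probe sets were, since ndhK (−1.12, adjusted p = 0.0171), ndhE (−1.04, adjusted p = 0.00882) and ndhG (−1.51, adjusted p = 0.0288) then also fell (limma). Without the second, where 9.23% of all probe sets were called, ndhD was called higher (1.36, adjusted p = 0.0263, limma) and ndhC was not called. Without the second Col-0 array with lincomycin the response of ndhC was −0.99, and without the first that of ndhF was −1.42.

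The probe set for both copies of ndhB, which encodes another antiporter-like membrane subunit, read 6.63 and 6.64 with lincomycin against 7.22 and 7.67 without in gun1-1. It read 7.58 and 7.76 with against 7.01 and 7.29 without in abi4-102, and 8.02 and 6.25 with against 8.17 and 9.20 without in Col-0. The fall in Col-0 was called (log2 −1.56, adjusted p = 0.0419, limma), with a gap of more than 1 between replicates in either Col-0 group. Neither mutant had a called response.

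Of 20 nuclear genes for NDH subunits, 4 had a probe set naming them alone, and they followed another pattern. With lincomycin 2 of 4 fell in gun1-1, 4 of 4 in abi4-102 and 4 of 4 in Col-0, where 4.9%, 5.51% and 7.95% of all probe sets fell. NdhN, a stromal-side subunit, read 7.99 and 7.88 in gun1-1 with lincomycin against 5.83 and 6.14 in Col-0 with it, and NdhL, a membrane subunit, 8.28 and 7.93 against 6.20 and 6.43. Both were thus higher in gun1-1 on all arrays, by log2 1.95 (adjusted p = 2.52e-05) and 1.79 (adjusted p = 6.85e-05, limma). AT2G04039, listed here by its identifier, was higher by 1.38 (adjusted p = 5.85e-05), and NdhS, the ferredoxin-binding subunit, differed by 0.23 (adjusted p = 0.312, limma). With lincomycin, transcripts of the same complex were thus called higher in gun1-1 than in Col-0 for 3 of 4 nuclear genes and lower for 4 of 10 plastid genes. Of all probe sets, 5.98% were called higher and 4.04% lower in that comparison.

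Of 11 nuclear genes for NDH assembly or for editing and processing of ndh RNAs, 5 were measured. With lincomycin none of the 5 was called in gun1-1, 2 fell in abi4-102 and 3 fell in Col-0, beside the same shares of all probe sets. In Col-0 these were CRR21 (−1.10, adjusted p = 0.000301), which edits ndhD RNA, and the assembly factors CRR41 (−1.07, adjusted p = 0.00178) and CRR42 (−1.33, adjusted p = 0.000286, limma). In gun1-1 4 of the 5, namely CRR21 (1.26), CRR28 (0.67), CRR41 (0.69) and CRR42 (1.30), were higher than in Col-0 with lincomycin, where 5.98% of all probe sets were, and CRR22 differed by 0.44 (adjusted p = 0.145, limma). CRR22 and CRR28 are likewise editing factors for ndh RNAs.

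Other lists were thinly covered. Of 4 genes for the other route of cyclic electron flow only PGRL1B was measured, and it was not called for lincomycin in any genotype, with responses of −0.28, −0.27 and −0.28 in gun1-1, abi4-102 and Col-0. Of 8 nuclear genes for plastid transcription only AT5G15700 was measured, with responses of −0.40, −0.33 and −0.38 in the same order, none called. The 8 mitochondrial nad genes, which encode the related respiratory subunits, had 1 member called higher in gun1-1, none in abi4-102 and 1 called higher in Col-0. Over all probe sets 5.79% were called higher in gun1-1 and 9.4% in Col-0, so 1 of 8 is near the background.

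Genes with profiles like those of the members were ranked by Pearson's r over the 12 arrays, with the mean of each cluster's members as the profile. Only 1 probe set per gene was ranked, and the members were left out. The mean of the first cluster joins genes that differed, since ndhJ and ndhC correlated at 0.19. For ndhC, ndhK and ndhJ the closest genes ranked were MYC4 (r = 0.954), AT4G14610 (0.924) and AT1G07080 (0.922), and the closest plastid genes were ccsA (0.885), psaB (0.885) and petL (0.884). For ndhF they were AT3G33066 (0.910), AT3G43990 (0.898) and AT1G63640 (0.892), with psbZ (0.861), psbJ (0.860) and psbF (0.835) among plastid genes. For the ndhD to ndhH members the plastid genes ycf4 (0.938) and cemA (0.923) ranked first of all, followed by the nuclear AT1G68220 (0.912), and the third plastid gene was rps16 (0.884). Such maxima over many probe sets are descriptions of these arrays.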

How the data were processed

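RNA from 12 whole-seedling samples was read on Affymetrix arrays. The authors deposited log2 expression values per probe set, made with RMA per the submitters' processing notes, with no version or settings given in the sources used here. RMA normalises all arrays together to 1 distribution, which can compress the brightest probe sets and hides global shifts. Of 22810 probe sets, 64 controls were left out. GEO's platform annotation named 1 gene for 13513 of the rest, several for 503 and none for 8730, and an unnamed probe set is not without a gene.

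Groups came from the sample titles. The log2 values were fitted with limma 3.58.1 in R 4.3.3, with 1 coefficient per group over all 6 groups (6 residual degrees of freedom), two-sided contrasts and Benjamini-Hochberg adjustment over 22746 probe sets. The script was tested on simulated data. The text names all 10 members, their neighbours in the plastid genome, every measured gene of the nuclear lists, and the 3 closest profiles per cluster. The members and lists were chosen with earlier results of these data known, and 3 of 13 comparisons were added after the data were seen. As alternatives, the replicate number entered as a block, only the compared groups were fitted, the prior followed an intensity trend robustly, arrays were weighted, and the values were changed by median centring or renewed quantile normalisation. Other fits kept the upper 60% of probe sets or those naming 1 gene, asked for a log2 change of at least 1, or left out each array in turn. Seed markers had no probe set naming them alone. Transcripts of the mutated genes and sequences were not analysed here.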

Additional observations from a re-analysis of the deposited data

Results flagged for a closer look

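The response of ndhI to lincomycin differed between gun1-1 and Col-0 by −0.72 on the log2 scale (adjusted p = 0.0229, limma). The ndhI probe set was brighter than 99.9% of probe sets, where RMA can compress differences, and the effect of this was not tested. Its response was −0.52 in gun1-1 and 0.20 in Col-0. It was the 1 of 10 members that passed, where 4.38% of all probe sets did, 1.16% as lower, and the call was lost in 7 of 8 fits that left out 1 array.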

How the results depend on the processing

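The count of members called stayed within 1.5 times the reported one in 107 of 117 refits with another setting, and no direction of a called value reversed. A count of 0 in both fits was taken as within it, so comparisons that called no member add to this number. For lincomycin in gun1-1 the reported fit called 5 members and 2432 of all probe sets. Fitting only the groups compared gave 3 members, where 766 probe sets were called. Asking also for a log2 change of at least 1 gave 3, where 435 were called, so the background fell too. That threshold left 2 members between gun1-1 and Col-0 with lincomycin, where 544 probe sets were called, beside 2279 in the reported fit. Of the mean responses over the 3 genotypes, it left those of ndhC and ndhH. For the difference of response between gun1-1 and Col-0 it left 0, where 540 probe sets were called, beside 997 in the reported fit. The upper 60% of probe sets gave 2 members for that difference, where 1089 were called. Array weights gave 4 between gun1-1 and abi4-102 with lincomycin, where 1531 probe sets were called, beside 2478 in the reported fit. Between abi4-102 and Col-0 without lincomycin, ndhH alone of the members was called with array weights and with only the groups compared. The reported fit called none of the members there and 1.68% of all probe sets. Among the members, the trend with robust prior called 1 difference of response between gun1-1 and abi4-102, that of ndhI. The reported fit called none of the members there and 0.532% of all probe sets. The cause of these changes was not tested. Leaving out each array in turn gave 1 to 5 members for lincomycin in Col-0, 2 to 3 in gun1-1 and 2 in abi4-102. It gave 0 to 2 for the difference between gun1-1 and Col-0, 3 to 5 for gun1-1 against Col-0 and 1 to 6 for gun1-1 against abi4-102 with lincomycin, 4 to 5 for the mean response and 0 for the other comparisons. A lone array left in a group was assumed to vary like the other groups. The replicate block gave the same count in 13 of 13 comparisons, for example 5 for lincomycin in gun1-1, but some of these had a count of 0 in both fits. Deviations of same-numbered arrays correlated between −0.28 and 0.28 over 15 pairs of groups, over 0.1 in 3. The highest, 0.28, was between abi4-102 with and without lincomycin. Such correlations cannot tell whether same-numbered arrays were handled together, and the reported fit used no pairing. The 2 arrays a group limit what could be called, and signal over background was not used here.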
